A study of Mus musculus with 10 samples.

Results

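10 genes of the Notch pathway were followed in RNA-seq libraries of the mouse mandibular prominence (MNP), the paired swelling of the first pharyngeal arch that forms the lower jaw. They were listed by name for their place in the pathway, with earlier results of these data known, and comprised 10 of the 33641 gene symbols in the files. Jag1, Jag2 and Dll1 are ligands, Notch1, Notch2 and Notch3 are receptors, and Hes1, Hes5, Hey1 and Hey2 are transcriptional repressors known as targets of the pathway. All 10 passed the filter on low counts, among 17477 genes in all. Hes5 passed it through the Gli2/3 cKO library alone, in which it was high, so counts and medians below are over the other 9 and no test of Hes5 is given.

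Notch ligands sit on the surface of one cell and bind receptors on its neighbour. The bound receptor is cut by a secretase complex, and its freed intracellular domain enters the nucleus, joins the DNA-binding protein RBPJ and switches on genes of the Hes and Hey families. In embryos the pathway is known for holding back neural differentiation, for the vessel wall, where Notch3 marks mural cells and Notch4 and Dll4 mark endothelium, and for the patterning of the facial skeleton, in which Jag1 and Notch2 take part.

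MNPs were taken at embryonic day 10.5 from CD1 embryos of 3 genotypes. WT embryos were wild-type, Hand2 cKO embryos were Hand2f/f;Wnt1-Cre, and Gli2/3 cKO embryos were Gli2f/f;Gli3f/f;Wnt1-Cre. Wnt1-Cre recombines floxed alleles in the neural crest lineage, so the epithelium, endothelium, muscle precursors and blood of a dissected MNP keep the floxed genes. Of 10 labelled samples 6 had a file and were used, 2 of them WT (replicates 3 and 4), 3 Hand2 cKO (1, 2 and 3) and 1 Gli2/3 cKO (replicate 3); 4 samples were not analysed here. The sources used here do not say whether a library came from 1 embryo or from a pool, so the p-values measure the spread between these libraries, and the Gli2/3 cKO library has no replicate.

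The libraries held 21420197 to 53326697 estimated counts. As a check of the labels, Hand2 ran from 13.4 to 25.5 CPM (the usual depth-scaled count, taken over the TMM-scaled library size) in Hand2 cKO, below its WT libraries at 174.5 and 209 CPM and the Gli2/3 cKO library at 144 CPM. Gli2 stood at 58.3 CPM and Gli3 at 80.2 CPM in Gli2/3 cKO, below their lowest WT libraries at 105 and 145 CPM. The neural crest mesenchyme markers Prrx1, Prrx2 and Twist1 reached at least 57.6 CPM in every library, and the 8 markers of that list summed to 1695 to 2163 CPM. Markers of epithelium summed to 334 to 390 CPM, of endothelium to 260.2 to 320 CPM, of muscle precursors to 30.4 to 38.9 CPM, of macrophages to 13.6 to 24.7 CPM and of erythroid cells to 2407 to 7482 CPM. Hand2 cKO 2 stood apart: with each doubling of transcript length its log2 CPM, centred on the 6-library mean of each gene, changed by -0.38, while the slopes of the other 5 ran from 0.0065 to 0.15. Results that rest on this library are given with and without it.

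Read per transcript length, the receptors and Hes1 led the 10 genes in WT MNPs. Levels between genes were compared as TPM, in which each transcript's estimated count is divided by its length before scaling to a common total. Notch3 stood highest at 70.1 ± 8.94 TPM (SD, n = 2), above 84.0% of the genes tested, followed by Hes1 at 45.5 ± 6.48 TPM, Notch2 at 35.1 ± 7.80 TPM and Notch1 at 19.7 ± 5.37 TPM. Jag2 stood at 16.8 ± 2.02 TPM, Jag1 at 15.0 ± 0.57 TPM and Hey1 at 11.4 ± 0.27 TPM. Hey2 (2.45 ± 0.44 TPM), Dll1 (1.84 ± 0.29 TPM) and Hes5 (0.033 ± 0.046 TPM) closed the order, with Hes5 above only 0.56% of the genes tested. With 2 WT libraries the ranges of neighbours in the order overlapped for Notch1 with Jag2 and for Jag2 with Jag1, and did not overlap for the other 7 pairs. Hes1 over Notch2, Notch2 over Notch1, Hey1 over Hey2 and Dll1 over Hes5 held within 6 of 6 libraries, while Notch3 over Hes1 held in 5 of 6, since in Hand2 cKO 2 Hes1 stood at 45.1 TPM and Notch3 at 20.0 TPM.

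**Figure D1:**
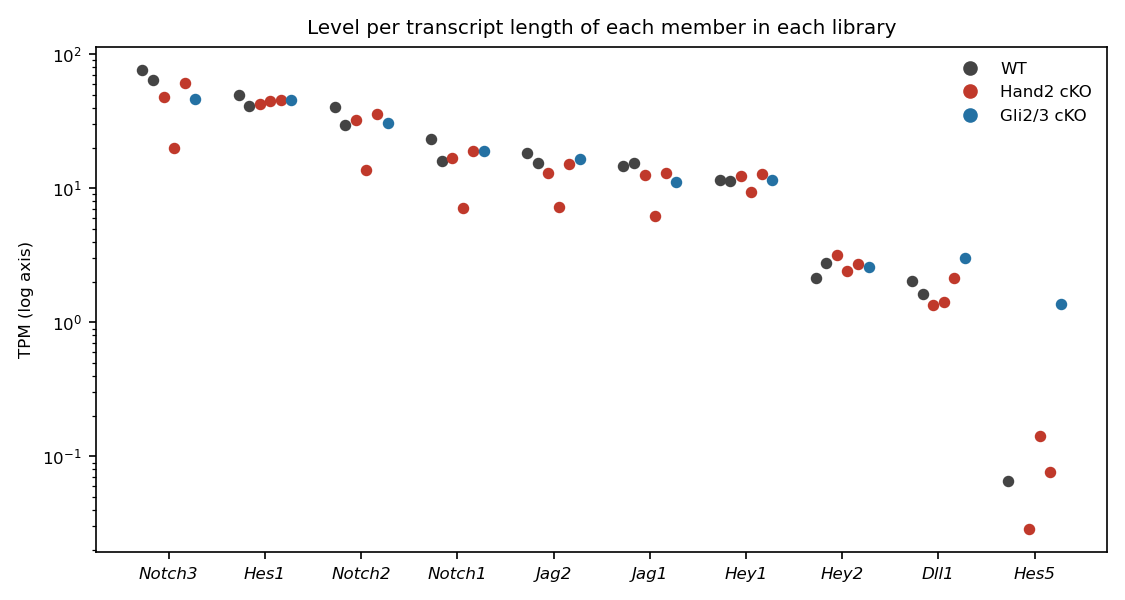
Level of each of the 10 genes per transcript length (TPM, log axis) in each library, ordered by the WT mean, with 1 point per library coloured by genotype. Notch3 leads in WT at 70.1 TPM, Hes5 is last, and the Hand2 cKO 2 points of the receptors lie lowest, at 20.0 TPM for Notch3. Hes5 in WT 4 was at 0 and is not drawn.

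By role, the 3 ligands summed to 14.8 to 34.9 TPM, the 3 receptors to 40.9 to 140.5 TPM and the 4 repressors to 54.9 to 63.9 TPM. The lowest ligand sum and the lowest receptor sum were both those of Hand2 cKO 2. Without that library the ligands summed to at least 26.9 TPM and the receptors to at least 96.1 TPM.

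Most of the genes were carried by 1 transcript. Jag2 and Notch3 are each listed with 1 transcript, and the main coding transcript held at least 98.2% of the counts of Notch1 and 99.9% of those of Notch2 in every library. Hes1-201 held 88.1% to 92.1%, Hey1-201 held 88.5% to 97.7%, Hey2-201 held 97.6% to 100% and Jag1-201 held 86.1% to 94.3%. Dll1 was the exception: Dll1-201 held 59.1% of its counts in WT 4 and 82.0% to 94.3% in the other libraries, the rest falling on short non-coding transcripts. Coordinates below are those of GENCODE M21 on mm10.

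Hand2 cKO was set against WT to see which Notch genes differ when Hand2 is lost from the neural crest. None of the 9 apart from Hes5 passed the test. Of them 4 had a positive and 5 a negative log2 fold change, where 49.9% of all genes were positive and 50.0% negative. The 3 receptors, Jag1 and Jag2 had negative values and Hes1, Hey1, Hey2 and Dll1 positive ones. Calls required an adjusted p (Benjamini-Hochberg) under 0.05 in edgeR's quasi-likelihood test and a fold of more than 1.5. That rule called 2 of all genes tested, or 0.0114%, and DESeq2 called 1.08% of its genes and 0 of the 9. DESeq2 gave Hes5 no adjusted p in any of the 3 comparisons, so its calls here and below cover the 9 alone. At an unadjusted p below 0.05 stood 0 of the 9, against 6.47% of all genes (2.44% higher and 4.02% lower). The median log2 fold change was -0.21 over the 9 and -0.00013 over all genes tested.

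Among the ligands, Jag1 (chromosome 2, 137081456 to 137116644, minus strand), whose loss is known to disturb facial and vascular development, stood at 31.9 and 31.6 CPM in WT 3 and 4, at 30.7, 21.4 and 29.9 CPM in Hand2 cKO 1, 2 and 3 and at 26.7 CPM in Gli2/3 cKO. All Hand2 cKO libraries lay below both WT libraries, though Hand2 cKO 1 and 3 did so by little. The log2 fold change of Hand2 cKO over WT was -0.22 ± 0.20 (± marks the SE of log2 fold changes throughout, 95% interval -0.69 to 0.26), and it was -0.080 without Hand2 cKO 2.

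Jag2 (chromosome 12, 112907819 to 112929776, minus strand), the second Jagged ligand, stood at 43.8 and 40.1 CPM in WT, at 34.9, 26.6 and 38.0 CPM in Hand2 cKO and at 42.2 CPM in Gli2/3 cKO. Again each Hand2 cKO library lay below both WT libraries, while the Gli2/3 cKO library lay between the WT libraries. Hand2 cKO over WT gave a log2 fold change of -0.34 ± 0.19 (95% interval -0.80 to 0.12), and -0.22 without Hand2 cKO 2.

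Dll1 (chromosome 17, 15367354 to 15376872, minus strand), a Delta ligand best known in neurogenesis and somite formation, was low throughout. It stood at 2.18 and 1.06 CPM in WT and at 2.06, 2.16 and 2.96 CPM in Hand2 cKO, and the 2 groups overlapped. The log2 fold change of Hand2 cKO over WT was 0.54 ± 0.38 (95% interval -0.40 to 1.47). WT 4 rested on 24 counts, and leaving out 1 library gave log2 fold changes from 0.13, without WT 4, to 1.17.

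Notch3 (chromosome 17, 32120820 to 32166852, minus strand) was the receptor with the largest difference. It stood at 288 and 260.4 CPM in WT, at 202, 115 and 241 CPM in Hand2 cKO and at 184 CPM in Gli2/3 cKO. The 4 mutant libraries all lay below both WT libraries, with Hand2 cKO 2 the lowest. Its log2 fold change in Hand2 cKO over WT was -0.56 ± 0.31 (95% interval -1.32 to 0.20, edgeR adjusted p = 0.723, with alternative settings giving 0.363 to 0.953). It was -0.32 without Hand2 cKO 2 and -0.35 with each library's trend on transcript length removed.

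Markers of mural cells, the pericytes and smooth muscle cells in which Notch3 is known to act, moved in both directions in Hand2 cKO. The 7 markers summed to 228 and 246 CPM in the WT libraries, to between 149 and 184 CPM in the Hand2 cKO libraries and to 183 CPM in the Gli2/3 cKO library, and in 4 of the 7 the Hand2 cKO libraries all lay under the WT range, as in 15.7% of all genes. Acta2, a smooth muscle actin, lay over it in all 3, at 2.63, 4.36 and 2.48 CPM against 1.87 and 1.19 CPM (log2 fold change 1.02 ± 0.39, edgeR adjusted p = 0.723), and Tagln overlapped WT with 0.29 ± 0.39. Pdgfrb, a receptor that mesenchyme also carries, made up most of the sum, with 163 to 172 CPM per WT library and 123 to 154 CPM per Hand2 cKO library. Rgs5 ranged over 4.44 to 8.43 CPM in the Hand2 cKO libraries against 32.8 and 57.4 CPM in the WT libraries. Of the 7 markers DESeq2 called Rgs5 alone in Hand2 cKO against WT (adjusted p = 1.07e-10). The main edgeR test did not call Rgs5 (adjusted p = 0.121, log2 fold change -2.76 ± 0.35), and 3 of the 15 alternatives did. Kcnj8 stayed below 0.5 CPM in every library. In the Gli2/3 cKO library 6 of the 7 markers, Acta2 and Tagln among them, lay under the WT range and 0 over it. Over all genes these shares were 33.7% and 36.6%. The part of mural cells in the Notch3 values was not tested. In bulk tissue fewer cells of a type and less RNA per cell cannot be told apart.

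Notch1 (chromosome 2, 26457903 to 26516663, minus strand), the receptor of many epithelia and of endothelium, stood at 94.1 and 61.9 CPM in WT, at 68.2, 46.4 and 76.4 CPM in Hand2 cKO and at 65.4 CPM in Gli2/3 cKO. The WT libraries spanned most of the mutant values, and the groups overlapped. Hand2 cKO over WT gave a log2 fold change of -0.29 ± 0.28 (95% interval -0.97 to 0.38), which turned to 0.040 without WT 3 and to 0.010 with the length trend removed.

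Notch2 (chromosome 3, 98013527 to 98150361, plus strand), the receptor known to pair with Jag1 in several organs, stood at 199.9 and 158 CPM in WT, at 177, 103 and 186 CPM in Hand2 cKO and at 159.7 CPM in Gli2/3 cKO. Only Hand2 cKO 2 lay below the WT range. Its log2 fold change in Hand2 cKO over WT was -0.21 ± 0.28 (95% interval -0.90 to 0.49), and without Hand2 cKO 2 it was 0.0028.

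Of the repressors, Hey1 (chromosome 3, 8663359 to 8667256, minus strand), a target with roles in vessels and in bone, stood at 11.8 and 11.3 CPM in WT, at 14.1, 15.5 and 13.1 CPM in Hand2 cKO and at 11.9 CPM in Gli2/3 cKO. All 3 Hand2 cKO libraries lay above both WT libraries. The log2 fold change of Hand2 cKO over WT was 0.30 ± 0.17 (95% interval -0.11 to 0.71, edgeR adjusted p = 0.723, with alternative settings giving 0.421 to 0.953), and 0.22 without Hand2 cKO 2.

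Hey2 (chromosome 10, 30832359 to 30842801, minus strand), known in the heart and in arteries, stood at 2.55 and 3.58 CPM in WT, at 4.22, 4.41 and 3.44 CPM in Hand2 cKO and at 3.25 CPM in Gli2/3 cKO. Hand2 cKO 3 lay within the WT range and the other Hand2 cKO libraries above it. Hand2 cKO over WT gave a log2 fold change of 0.40 ± 0.27 (95% interval -0.25 to 1.05), and 0.17 to 0.66 with 1 library left out.

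Hes1 (chromosome 16, 30064384 to 30067796, plus strand), a repressor that many signals besides Notch can induce, stood at 28.3 and 25.4 CPM in WT, at 27.8, 41.9 and 28.2 CPM in Hand2 cKO and at 28.4 CPM in Gli2/3 cKO. Hand2 cKO 2 was alone in being high, and the other 5 libraries lay within 3.1 CPM of each other. Its log2 fold change in Hand2 cKO over WT was 0.28 ± 0.23 (95% interval -0.27 to 0.83), and without Hand2 cKO 2 it was 0.047.

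**Figure D2:**
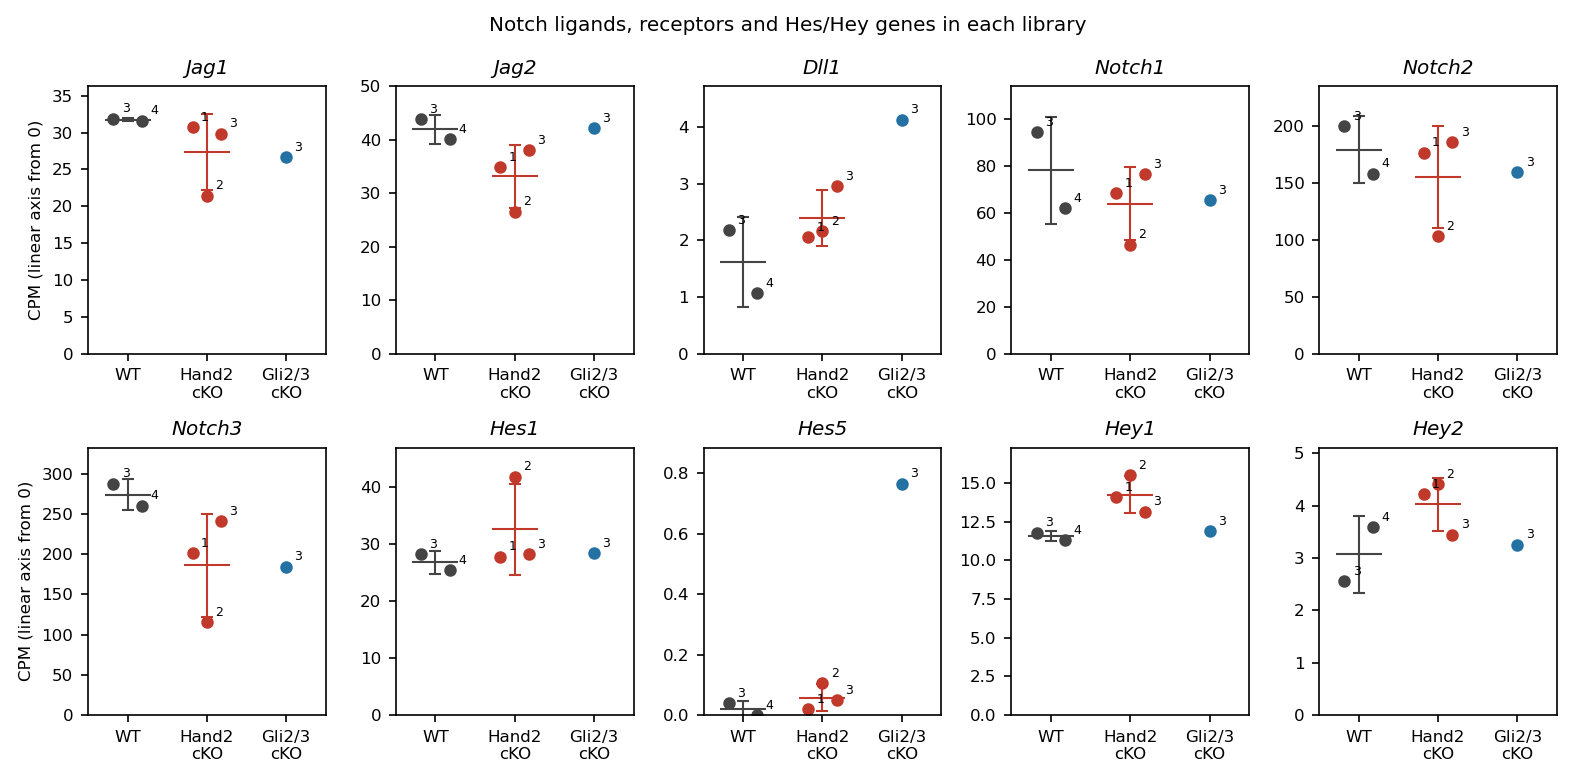
CPM (linear axes from 0) of the 10 genes in each library, each point carrying its replicate number. Bars give mean and SD for 2 WT and 3 Hand2 cKO libraries, and the Gli2/3 cKO library stands alone. Jag1, Jag2 and Notch3 lie under the WT range and Hey1 over it in every Hand2 cKO library, and Hes5 reaches 0.765 CPM in Gli2/3 cKO alone.

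Counted by library, Jag1, Jag2 and Notch3 were under the WT range and Hey1 over it in every Hand2 cKO library, which is 4 of the 9 genes apart from Hes5. Over all genes tested 31.0% had groups that did not overlap in this comparison, 15.7% lower and 15.3% higher.

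Transcript length and the place of Hand2 cKO 2 went together within the 10 genes. That library was the lowest of the 6 for Jag1, Jag2, Notch1, Notch2 and Notch3, whose mean transcript lengths run from 5106 to 10495 bases, and the highest for Hes1, Hey1 and Hey2, at 1381 to 2547 bases. It lay between the others for Dll1 and Hes5. Over 10 equal groups of all genes, ordered by length, the median difference of Hand2 cKO 2 from the mean of the other 5 libraries ran from 0.82 on the log2 scale at 868 bases to -0.74 at 7439 bases. With the length trend of each library removed, the log2 fold changes of Hand2 cKO over WT were -0.058 for Jag1, -0.19 for Jag2, 0.010 for Notch1, 0.093 for Notch2 and -0.35 for Notch3, so that 2 of the 3 receptors turned positive. The repressors stayed positive, at 0.12 for Hes1, 0.28 for Hey1 and 0.41 for Hey2.

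**Figure D3:**
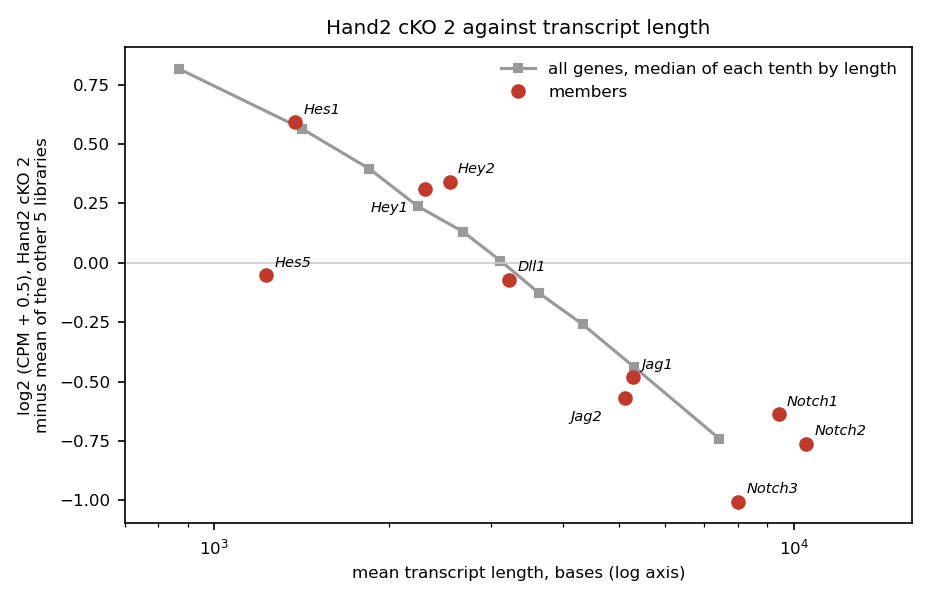
Difference of Hand2 cKO 2 from the mean of the other 5 libraries (log2 of CPM plus 0.5) against mean transcript length (bases, log axis), for the 10 genes (red) and for the medians of 10 equal groups of all genes by length (grey). The long receptor and Jagged transcripts lie at the low end, down to -1.01 for Notch3, and Hes1 at the high end.

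Gli2/3 cKO was set against WT to see which Notch genes differ when both Gli factors are lost from the neural crest. It shares its WT libraries with the comparison above and rests on 1 mutant library, whose spread is borrowed from the other groups. None of the 9 apart from Hes5 was called by edgeR or by DESeq2, where edgeR called 0.0114% of all genes tested and DESeq2 0.791%. Of the 9 apart from Hes5, Dll1 was at an unadjusted p below 0.05 and had a positive value, against 4.59% of all genes, 1.63% higher and 2.96% lower. Positive values were held by 5 and negative ones by 4 of the 9, and by 50.2% and 49.7% of all genes. The median log2 fold change was 0.0085 over the 9 and 0.0012 over all genes.

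Hes5 (chromosome 4, 154960923 to 154962371, plus strand), the Hes gene most tied to neural progenitors, showed the largest difference. It had 2 counts in WT 3 and 0 in WT 4, 1, 4 and 2 counts in Hand2 cKO 1, 2 and 3, and 20 counts in Gli2/3 cKO 3. As CPM these were 0.039 and 0 in WT, 0.019, 0.106 and 0.048 in Hand2 cKO and 0.765 in Gli2/3 cKO, where 3 counts of a library correspond to 0.057 to 0.133 CPM. The Gli2/3 cKO library stood above the other 5, and 4 of those lay below their own level of 3 counts. Of its 20 counts 19 fell on the coding transcript Hes5-201. The ratio of the summed counts to WT, scaled by library size, was 28.3, and to Hand2 cKO it was 14.5. Both rest on 20 counts in the 1 library through which Hes5 passed the filter, so no interval is given.

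The start of Hes5 is shown because of that difference. Of the 10 genes 8 had at least 1 window of 250 bases before a RefSeq start site on GRCm38.p6 in the table used, 9 windows in all, and those of Hes5 and Hey2 held the letters of the RBPJ motif GTGGGAA on either strand. The motif (TTCCCAC when read on the other strand) is in capitals in the windows of Hes5 at chr4:154960673-154960922 (plus strand) and of Hey2 at chr10:30842784-30843033 (minus strand), both printed 5′ to 3′ on the strand of the gene.
Hes5: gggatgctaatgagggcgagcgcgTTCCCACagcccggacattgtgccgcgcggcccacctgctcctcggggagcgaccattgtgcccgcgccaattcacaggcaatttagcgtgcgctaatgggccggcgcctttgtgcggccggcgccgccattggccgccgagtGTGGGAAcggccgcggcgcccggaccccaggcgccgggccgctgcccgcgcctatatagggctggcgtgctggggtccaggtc
Hey2: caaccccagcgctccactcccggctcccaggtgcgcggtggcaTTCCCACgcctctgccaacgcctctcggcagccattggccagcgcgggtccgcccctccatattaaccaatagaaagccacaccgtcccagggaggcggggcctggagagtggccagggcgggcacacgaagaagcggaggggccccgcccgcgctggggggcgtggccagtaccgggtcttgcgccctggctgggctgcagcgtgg
In Hes5 the matches lie 226 to 220 and 83 to 77 bases before the start, on opposite strands, and in Hey2 the match lies 207 to 201 bases before it. Of 32851 windows of this length 5.42% held at least 1 match and 0.161% held 2 or more. A match is a description of letters and says nothing of binding in these MNPs. The transcript Gm20421 runs on the opposite strand over the 5′ part of Hes5 (154960770 to 154961678). The sources used here do not give the strandedness of the libraries, and reads of the 2 cannot be told apart without it.

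Dll1 was the other gene to stand above all other libraries in Gli2/3 cKO, at 4.13 CPM against 1.06 to 2.96 CPM elsewhere. Its log2 fold change over WT was 1.32 ± 0.49 (95% interval 0.13 to 2.52, unadjusted p = 0.0348, edgeR adjusted p = 1, with alternative settings giving 0.431 to 1). Without WT 4 it was 0.92 and without WT 3 it was 1.96. Per transcript length the levels lay closer, at 3.01 TPM in Gli2/3 cKO against 2.05 and 1.64 TPM in WT and 1.34 to 2.14 TPM in Hand2 cKO. The lncRNA A930024N18Rik overlaps Dll1 on the opposite strand.

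Several proneural genes and neural progenitor markers were highest in the Gli2/3 cKO library, at low levels. The 5 proneural genes described here (Neurog1, Neurog2, Neurod1, Neurod4 and Atoh1, all named after their values were seen), which encode factors that start neural differentiation, summed to 1.11 CPM in Gli2/3 cKO, against 0.058 and 0.177 CPM in the WT libraries and 0.053 to 0.397 CPM in the Hand2 cKO libraries. In Gli2/3 cKO 5 of 5 lay above the WT range, and 36.6% of all genes tested did. That share does not match the 5, which were named after their values were seen. Of them only Neurod1 passed the filter on low counts. Above every other library lay 4 of 5, the exception being Neurod1, and the share of all genes highest in this library was not counted. Each of the 5 rested on few counts, such as 10 for Neurog1. Of the 8 neural progenitor markers 7, all but Nes, lay above the WT range in that library, and 6 were highest in it. The exceptions among the 8 to being highest were Sox2 and Nes. Summed, the 8 stood at 99.4 CPM there, within the 97.8 to 119.7 CPM of the WT libraries and below the 145 to 151 CPM of the Hand2 cKO libraries, with Nes making up most of the sum. Nes, Sox2, Otx2 and Pou3f2 lay over the WT range in every Hand2 cKO library and Pax6 under it, against 15.3% and 15.7% of all genes. Pou3f2 did so by little, at 0.158 CPM in Hand2 cKO 2 against 0.156 CPM in WT 3. Sox1 stood at 0.842 CPM in Gli2/3 cKO and at 0 to 0.265 CPM in the other libraries. The 8 neuron markers summed to 37.8 CPM in Gli2/3 cKO against 42.4 and 48.9 CPM in WT. In that library 3 of the 8, Elavl3, Elavl4 and Nefl, lay above the WT range and 5 below it. Over all genes these shares were 36.6% and 33.7%. The part of neural cells in the values of Hes5 and Dll1 was not tested.

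**Figure D4:**
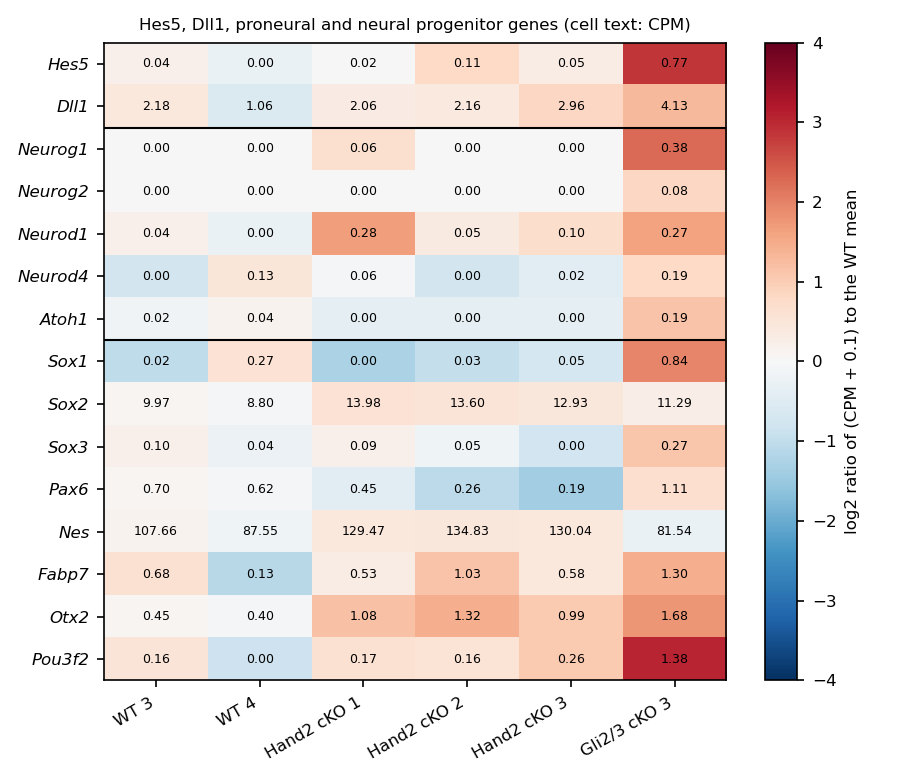
Hes5 and Dll1 (top), 5 proneural genes (middle) and the 8 neural progenitor markers (bottom) in each library, coloured by the log2 ratio of CPM plus 0.1 to the WT mean, with the CPM written in each cell. The Gli2/3 cKO column is the highest for Hes5 and Dll1, for 4 of the 5 proneural genes and for 6 of the 8 markers, nearly all below 2 CPM. The share of all genes highest in that library was not counted.

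For the other 8 genes the log2 fold changes of Gli2/3 cKO over WT ran from -0.57 to 0.093. Hes1, Hey1 and Hey2 had log2 fold changes of 0.082 ± 0.30, 0.042 ± 0.23 and 0.093 ± 0.36, and Jag2 had 0.0085 ± 0.26. The 95% interval was -0.51 to 0.59 for Hey1, -0.61 to 0.63 for Jag2 and -0.65 to 0.81 for Hes1, so changes of up to about that size in either direction could not be seen with 1 library. Jag1 had -0.25 ± 0.27, Notch1 -0.26 ± 0.38, Notch2 -0.17 ± 0.39 and Notch3 -0.57 ± 0.43, whose 95% interval ran from -1.62 to 0.48. Jag1 and Notch3 lay below both WT libraries, and Dll1, Hes1 and Hey1 above both, the last pair by less than 0.2 CPM, which is 5 of the 9 genes apart from Hes5. In this comparison 70.2% of all genes lay outside the WT range in either direction, 33.7% below it and 36.6% above it.

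Set against each other, the mutants differed most in Hes5 as well. None of the 9 apart from Hes5 was called by either tool in Gli2/3 cKO against Hand2 cKO, where edgeR called 0.0343% of all genes and DESeq2 0.87%. At an unadjusted p below 0.05 stood 0 of the 9, against 5.48% of all genes (2.86% higher and 2.63% lower). The Hes5 counts are those given above. Dll1 had 0.79 ± 0.46 and Jag2 0.35 ± 0.24, each with the Gli2/3 cKO library above all Hand2 cKO libraries. Hey1 had -0.26 ± 0.22 and Hey2 -0.31 ± 0.34, with the Gli2/3 cKO library below all Hand2 cKO libraries. Jag1, Notch1, Notch2, Notch3 and Hes1 lay within the Hand2 cKO range, with log2 fold changes from -0.20 for Hes1 to 0.041 for Notch2. Over all genes 55.9% lay outside that range, 28.7% above and 27.2% below it. Of the 9, 4 had positive and 5 negative values, as had 48.2% and 51.7% of all genes. The median was -0.013 over the 9 and -0.016 over all genes.

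**Figure D5:**
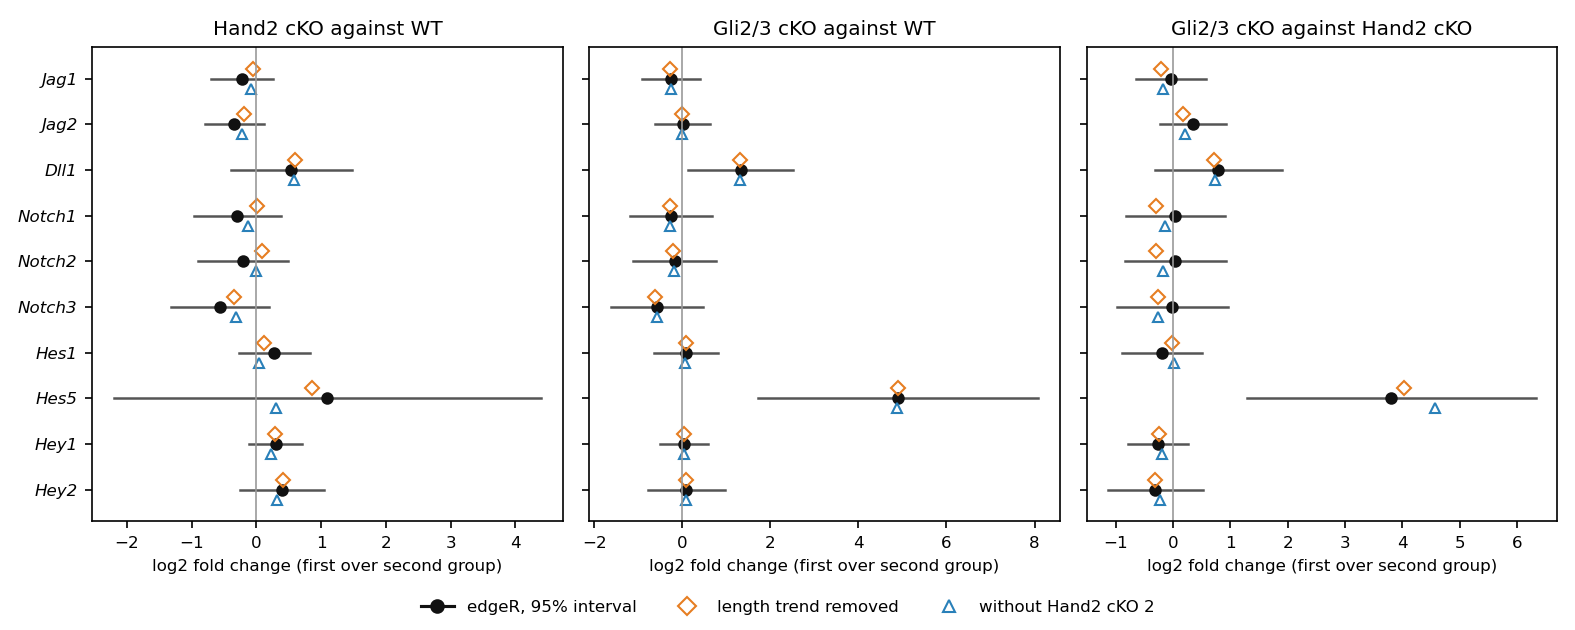
Log2 fold changes of the 10 genes in the 3 comparisons (first group over second), as edgeR estimates with 95% intervals (black), with the length trend removed (orange diamonds) and without Hand2 cKO 2 (blue triangles). Hes5 passed the filter only through Gli2/3 cKO, so its intervals are drawn but not read. Apart from Hes5, intervals include 0 in all but Dll1 in Gli2/3 cKO against WT.

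The rest of the pathway was read from a list of 44 other genes, of which 42 were tested, Hes2 and Hes3 being too low. In Hand2 cKO against WT 16 had positive and 26 negative log2 fold changes, 0 were called by edgeR or DESeq2, and the median was -0.105, or -0.024 with the length trend removed. At an unadjusted p below 0.05 stood 3 of the 42, all lower, where 6.47% of all genes did so. The Hand2 cKO libraries all lay under the WT range in 8 of the 42 and over it in 3, against 15.7% and 15.3% of all genes. Notch4, the endothelial receptor, stood at 25.2 and 26.1 CPM in WT and at 18.3, 21.8 and 18.7 CPM in Hand2 cKO (-0.39 ± 0.16, edgeR adjusted p = 0.723). With the length trend removed its log2 fold change was -0.13. Furin, the protease that first cuts Notch receptors, stood at 72.6 and 71.5 CPM and 57.1, 47.0 and 60.0 CPM (-0.40 ± 0.16), and Numbl, an adaptor of the Numb family that restrains Notch, at 23.6 and 25.7 CPM and 18.8, 18.2 and 14.0 CPM (-0.53 ± 0.19). These 3 are among the 8 under the WT range.

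Next by p in that comparison came the secretase subunits Ncstn (-0.34 ± 0.16, unadjusted p = 0.0676) and Psenen (0.73 ± 0.35, unadjusted p = 0.0796, with its highest level, 62.9 CPM, in Hand2 cKO 2), and Snw1 (0.29 ± 0.16, unadjusted p = 0.122), a cofactor of the nuclear complex. With 1 library left out, the log2 fold change of Psenen ran from 0.30 to 0.91. Ligand Dll4 had -0.15 ± 0.21, target Heyl 0.24 ± 0.43, feedback inhibitor Nrarp 0.16 ± 0.21 and Rbpj itself -0.10 ± 0.19. Rbpj was steady at 150.4 to 159 CPM in 5 libraries and stood at 114 CPM in Hand2 cKO 2, and without that library its value was 0.022. Heyl and Nrarp turned to -0.28 and -0.0059 without WT 4. The 9 endothelial markers, beside Notch4 and Dll4, summed to 271 and 320 CPM in the WT libraries, to 266 to 276 CPM in the Hand2 cKO libraries and to 260.2 CPM in Gli2/3 cKO, and in 4 of the 9 the Hand2 cKO libraries all lay under the WT range, against 15.7% of all genes. Cldn5, a tight junction gene, lay over it, at 12.0, 20.8 and 10.9 CPM against 9.53 and 10.8 CPM. The part of endothelial cells in the Notch4 values was not tested.

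In Gli2/3 cKO against WT 18 of the 42 had positive and 24 negative values, with a median of -0.052 and 0 called by edgeR. Aph1b, a subunit of the secretase that frees the receptor's intracellular domain, was the 1 gene called by DESeq2 (adjusted p = 0.008) and the 1 gene at an unadjusted p below 0.05. It stood at 17.7 and 14.9 CPM in WT, at 10.4, 6.60 and 16.5 CPM in Hand2 cKO and at 3.33 CPM in Gli2/3 cKO, the lowest library, and its log2 fold change was -2.29 ± 0.58 (95% interval -3.72 to -0.87, edgeR adjusted p = 0.779). Between edgeR's alternatives the adjusted p reached 1, and the sign held in all 15 alternatives. Aph1b shares long stretches of sequence with its paralog Aph1c, so the split of reads between them is uncertain. Summed, both stood at 19.0 and 15.7 CPM in WT, at 11.5, 7.26 and 17.1 CPM in Hand2 cKO and at 4.74 CPM in Gli2/3 cKO. Against WT, Furin (-0.48 ± 0.22), Hdac1 (-0.35 ± 0.21), Neurl1a (-0.56 ± 0.40) and Dtx3 (-0.35 ± 0.26) followed by p with Notch4 (-0.32 ± 0.21), none called, while Dll4 had 0.13 ± 0.29, Heyl 0.093 ± 0.58, Nrarp -0.27 ± 0.29 and Rbpj -0.030 ± 0.26.

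Between the mutants 22 of the 42 had positive and 20 negative values, with a median of 0.0038, and 0 were called by either tool. At an unadjusted p below 0.05 stood Aph1b (-1.74 ± 0.55, unadjusted p = 0.0187) and Hdac1, a corepressor of the RBPJ complex (-0.56 ± 0.21, unadjusted p = 0.0329). Hdac1 stood at 143 CPM in Gli2/3 cKO and at 190.4, 226 and 216 CPM in Hand2 cKO. Dll3, a Delta family member that does not activate the receptor, was low at 0.689 CPM in Gli2/3 cKO against 0.227 to 0.343 CPM in Hand2 cKO (1.23 ± 0.57, unadjusted p = 0.0741). Ncstn (0.34 ± 0.19), Numbl (0.39 ± 0.23) and Dtx1 (-0.71 ± 0.44) came next.

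Genes whose library-by-library pattern lay nearest to a member were sought among 12228 genes, for the 4 members that spanned more than 1 log2 unit over the 6 libraries, as a description with no test. Nearest to Notch3 were Hivep2, Fn1 and Dsp, at root mean square distances of 0.062, 0.067 and 0.075 on the log2 scale, and nearest to Notch1 were Dlc1, Celsr1 and Prdm16 (0.050, 0.070 and 0.072). These 6 have mean transcript lengths of 5997 to 10879 bases, and Notch3 and Notch1 have 8016 and 9418 bases. Nearest to Dll1 were Apol7b, Stc2 and Zfp942 (0.101, 0.120 and 0.125), and nearest to Hes5 were Smpdl3b, A630010A05Rik and Cd59a (0.124, 0.164 and 0.170).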

How the data were processed

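Polyadenylated RNA of mouse MNPs at embryonic day 10.5 was measured by bulk RNA-seq. Genotype and replicate number were both read from the labels. The study mapped paired-end reads to mm10 and quantified them in Strand NGS, with DESeq2. The sources used here give neither the program's version nor its annotation. For each of 105129 transcripts the authors deposited an expected count, the estimate of its reads by their program. From 47.7% to 56.8% of a library's values lay more than 0.01 from a whole number, so they were summed by gene symbol and rounded, although whole counts had been planned for. Depth was 21420197 to 53326697 estimated counts per library. The floor of 3 counts covers counting error only, and the 95% intervals shown are those of the edgeR fit.

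The test was edgeR 4.0.16 under R 4.3.3, run on the 17477 genes passing filterByExpr (TMM scaling, quasi-likelihood fit of all 6 libraries, genotype as the only term, 3 residual degrees of freedom). Calls needed a Benjamini-Hochberg adjusted p under 0.05 with a fold of more than 1.5, as in the study. The 15 alternatives include DESeq2 1.42.0. The test was tried on simulated data with known changes. TPM used GENCODE M21 transcript lengths, matched for 103635 transcripts. Likeness used log2 of CPM plus 0.5 and protein-coding genes with a mean log2 CPM of at least 1.

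The 10 genes and the lists were chosen with earlier results of these data known. Named were the 10 members, any called pathway gene, up to 6 others per comparison by smallest unadjusted p, Dll4, Notch4, Heyl, Rbpj and Nrarp, proneural genes reaching 1 CPM (none of the 5 described did; 1 other is not reported here, for a reason unrelated to its values), defining markers, and 3 genes nearest in pattern to members spanning over 1 log2 unit.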

Additional observations from a re-analysis of the deposited data

How the results depend on the processing

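None of the 9 members apart from Hes5 was called under any of the 15 alternatives in any of the 3 comparisons. The lowest adjusted p among them was 0.337 (Notch3 in Gli2/3 cKO against WT, edgeR without Hand2 cKO 2). Over all genes the number called ranged from 1 to 181 in Hand2 cKO against WT (2 as reported), from 0 to 129 in Gli2/3 cKO against WT (2) and from 2 to 142 between the mutants (6), each highest by DESeq2, so the number of calls depends on the tool. Of the other pathway genes DESeq2 called 1, Aph1b, in Gli2/3 cKO against WT, where edgeR called 0. With library totals only, the median of all genes in Hand2 cKO against WT moved to -0.118, and that of all 10 members to -0.080. With only the groups compared, Hes5 did not pass the filter and the median of the remaining members was -0.214. DESeq2 gave Hes5 no adjusted p in any comparison, so it could not call that gene. No paired analysis was possible because the WT and Hand2 cKO libraries share only 1 replicate number and Gli2/3 cKO has 1 library.

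Some values turned sign, and the cause was not tested. In Hand2 cKO against WT the log2 fold change with the length trend removed was 0.010 for Notch1, 0.093 for Notch2 and 0.053 for Rbpj, and leaving out 1 library gave -0.56 to 0.040 for Notch1, -0.37 to 0.0028 for Notch2, -0.19 to 0.022 for Rbpj, -0.28 to 1.117 for Heyl and -0.0059 to 0.36 for Nrarp. In Gli2/3 cKO against WT Jag2 was -0.016 with library totals only and -0.014 with the length trend removed, and leaving out 1 library gave -0.055 to 0.076 for Jag2, -0.53 to 0.079 for Notch1, -0.32 to 0.014 for Notch2, -0.14 to 0.35 for Hey2 and -0.42 to 0.98 for Heyl. Between the mutants Jag1 was 0.049 with library totals only and 0.017 with coding transcripts only, and Notch3 was 0.017 with upper-quartile scaling, 0.060 with library totals only and 0.025 with coding transcripts only. With the length trend removed Notch1 was -0.29, Notch2 -0.30, Rbpj -0.11 and Notch4 -0.23, and Notch4 was -0.022 with coding transcripts only. Leaving out 1 library there gave -0.18 to 0.056 for Jag1, -0.14 to 0.19 for Notch1, -0.18 to 0.19 for Notch2, -0.26 to 0.22 for Notch3, -0.31 to 0.022 for Hes1 and -0.063 to 0.16 for Rbpj. Dll1 turned sign in none of the settings, with 0.92 to 1.96 in Gli2/3 cKO against WT over those that leave out 1 library.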
